A study of Mus musculus with 9 samples.

Results

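Somatic hypermutation diversifies antibody genes in germinal center B cells. Deaminated cytosines leave uracils in the DNA, which are either removed by a uracil glycosylase or read as mismatches, and error-prone translesion polymerases then fill the resulting gaps or copy past the damaged base. The dark zone of the germinal center is where B cells divide and mutate, and the light zone is where they are selected by antigen and T cells. Described here are 8 genes of this machinery, matched by gene symbol among the 23700 entries of each gene table. They are Ung, the uracil glycosylase; Msh6, a mismatch-recognition subunit, and Exo1, the exonuclease that resects from the mismatch; and the translesion group of Polh, Rev1, Poli, Polk and Mad2l2. All 8 were found once in every table and passed the expression filter (FPKM of 1 or more in 3 or more of the 9 libraries).

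The libraries come from sorted germinal center B cells of mouse spleen, in 3 groups of 3. Foxo1-deficient cells were Foxo1(f/f) and marked CD45.1/2, whereas the DZ and LZ cells were wild type, Foxo1(+/+), and marked CD45.1/1. All groups, controls included, were on C57BL/6 and carried ERT2cre(KI/+), a tamoxifen-activated Cre, together with B1-8hi(KI/+), part of a receptor for the hapten NP. B cells of both genotypes had been transferred together into the same C57BL/6 recipients. The recipients were immunized with NP-CGG in alum on day 0 and given tamoxifen on days 7 to 9, and cells were sorted on day 12, about 10000 per library. Wild-type cells were sorted into a dark zone gate (DZ, CD86 low and CXCR4 high) and a light zone gate (LZ, CD86 high and CXCR4 low), but Foxo1-deficient cells were sorted with no zone gate, so that genotype and gate cannot be told apart in comparisons with either zone. For the Foxo1(f/f) cells the labels give the genotype CD45.1/2 together with a CD45.2-negative gate, and which entry holds is not known here. Separate animals are not stated for the replicates, and the p-values rest on a spread among libraries that may be technical.

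Levels are in FPKM, a fragment count divided by transcript length and library size, so that genes can be compared per length. Foxo1, the targeted gene, stood at 0.808 to 3.01 FPKM in Foxo1-deficient libraries, against 19.1 to 24.5 FPKM in DZ and 14.8 to 22.1 FPKM in LZ. The library depth is not stated, and its relative size, estimated from the Cufflinks intervals, was 0.83 to 1.11. All 13 germinal center B cell markers found in the tables averaged at least 1 FPKM in each group. Myeloid markers summed higher in the Foxo1-deficient libraries, which differ from the wild-type libraries in both genotype and gate. The 21 found in the tables summed to 254 to 436 FPKM in Foxo1-deficient libraries. The sum was 57.6 to 70.5 FPKM in DZ and 71.4 to 94.7 FPKM in LZ. Of 14 tested, 11 rose against DZ and 9 against LZ. A marker near 0 in all 6 wild-type libraries could pass the expression filter only through the Foxo1-deficient libraries. These counts were therefore partly set by the filter and do not measure what share of the markers moved. Tyrobp and S100a8 were listed at 0 in all 6 wild-type libraries, while Cd14, Mpo and Elane were listed at 0 in all Foxo1-deficient libraries. The 8 erythroid and platelet markers found summed to 166 to 544 FPKM in Foxo1-deficient libraries, against 12.9 to 21.7 FPKM in DZ and 21.9 to 44.4 FPKM in LZ. The 11 T cell markers found summed to 18.7 to 24.9 FPKM in Foxo1-deficient libraries, against 14.7 to 20.7 FPKM in DZ and 28.5 to 33.6 FPKM in LZ. Most of that sum was Lck, at 14.7 to 24.8 FPKM in Foxo1-deficient, 10.8 to 19.9 FPKM in DZ and 26.2 to 27.4 FPKM in LZ libraries, while Cd3e, Cd3g and Cd4 were listed at 0 in all 9. The 6 plasma cell markers found summed to 233 to 355 FPKM in Foxo1-deficient libraries, against 189 to 291 FPKM in DZ and 127 to 151 FPKM in LZ. Most of this sum was Igj, at 185 to 291 FPKM in Foxo1-deficient, 153 to 235.5 FPKM in DZ and 70.2 to 99.96 FPKM in LZ libraries. Irf4 had another order, at 4.46 to 9.34 FPKM in Foxo1-deficient, 1.71 to 5.52 FPKM in DZ and 8.66 to 11.6 FPKM in LZ libraries. Tnfrsf17 was listed at 0 in all Foxo1-deficient libraries. The part of these other cells in the values below was not tested. In bulk RNA, fewer cells of a type and less RNA per cell cannot be told apart.

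Promoter windows of 6 of the 8 genes were read from a RefSeq-based table on GRCm38.p6. Each spans 250 bases before to 50 after a start site. None was read for Exo1 or Poli, which does not show that the table lacks them. Those of Polh and Rev1 are shown because these are the genes that passed a test, and that of Msh6 because its profile was the closest to Polh among the members. Capitals mark matches on either strand to GTAAACA (forkhead), TTTCCCGC or TTTGGCGC (E2F), CCAAT (NF-Y), CACGTG (E-box) and GGGCGG (Sp).
Polh, chr17:46202592-46202891, minus strand: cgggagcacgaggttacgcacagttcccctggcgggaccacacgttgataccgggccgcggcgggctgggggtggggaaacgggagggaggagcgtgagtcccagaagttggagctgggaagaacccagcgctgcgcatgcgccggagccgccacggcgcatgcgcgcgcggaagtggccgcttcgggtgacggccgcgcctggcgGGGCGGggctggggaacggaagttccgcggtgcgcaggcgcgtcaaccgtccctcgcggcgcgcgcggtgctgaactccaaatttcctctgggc
Rev1, chr1:38129617-38129916, minus strand: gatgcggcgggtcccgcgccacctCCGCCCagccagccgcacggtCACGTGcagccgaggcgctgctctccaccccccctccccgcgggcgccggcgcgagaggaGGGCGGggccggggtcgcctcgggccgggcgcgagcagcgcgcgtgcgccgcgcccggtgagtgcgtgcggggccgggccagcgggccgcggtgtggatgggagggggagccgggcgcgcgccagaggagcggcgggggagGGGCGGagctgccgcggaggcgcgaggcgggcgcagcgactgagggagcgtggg
Msh6, chr17:87974800-87975099, plus strand: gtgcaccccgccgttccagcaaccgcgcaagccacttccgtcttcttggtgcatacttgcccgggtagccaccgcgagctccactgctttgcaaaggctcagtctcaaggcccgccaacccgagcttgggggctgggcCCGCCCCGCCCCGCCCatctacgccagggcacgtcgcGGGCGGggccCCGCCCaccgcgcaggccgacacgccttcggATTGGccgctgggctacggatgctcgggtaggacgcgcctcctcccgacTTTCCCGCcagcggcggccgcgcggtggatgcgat

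The Polh window held 1 match to GGGCGG, starting 44 bases before the start site (position -44), and none to the other letters searched. In the Rev1 window, GGGCGG matched 3 times and the E-box CACGTG once, at position -205. Msh6 held 5 matches to GGGCGG, some of them overlapping, 1 to CCAAT at position -34 and 1 to TTTCCCGC at position 15 after the start. The forkhead letters GTAAACA were in none of the 8 windows of these 6 genes, against 3.65% of all 32851 windows in the table. GGGCGG was in 35.7% of all windows, CCAAT in 37.4%, CACGTG in 7.15%, TTTCCCGC in 1.07% and TTTGGCGC in 0.514%. The GC content was 72.0% for Polh, 83.0% for Rev1 and 71.7% for Msh6, against a median of 52.7% over all windows. These matches describe the letters only.

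Polh and Rev1 were the members that passed the test, and they had different profiles. Polh was highest in DZ, lowest in LZ and in between in Foxo1-deficient cells. Rev1 was highest in Foxo1-deficient cells and lowest in DZ. None of the other 6 passed in any comparison. Tests were made with limma on log2(FPKM + 1) over 10004 genes, with Benjamini-Hochberg adjustment, and each log2 change is that of the first-named group over the second. Exactly 1 of 8 members was called in each comparison, and each of these was higher in the first-named group. Over all genes tested, 2.85% were called in Foxo1-deficient against DZ (2.1% higher and 0.75% lower), 1.56% in Foxo1-deficient against LZ (0.69% higher and 0.87% lower) and 1.94% in DZ against LZ (0.56% higher and 1.38% lower). The comparisons share libraries, so their values are given side by side.

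**Figure D1:**
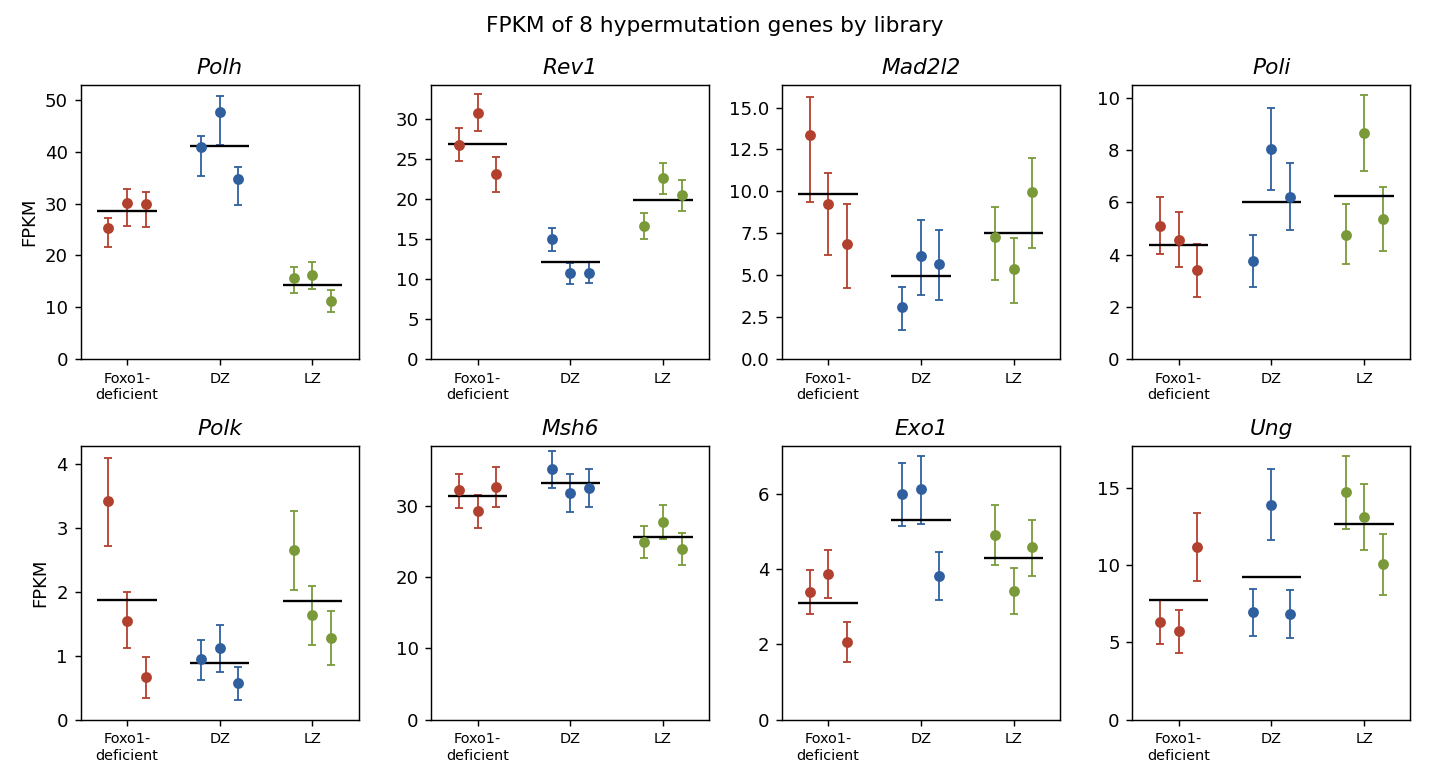
FPKM of each of the 8 genes (y axis, from 0) in Foxo1-deficient, DZ and LZ libraries. Points are libraries, vertical bars the Cufflinks confidence intervals deposited by the authors, and horizontal lines group means. The Polh groups do not overlap (25.4 to 30.1, 34.7 to 47.6 and 11.2 to 16.2 FPKM), nor do those of Rev1 (23.1 to 30.7, 10.7 to 14.9 and 16.6 to 22.5 FPKM).

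Polh encodes DNA polymerase eta, which copies past ultraviolet lesions and makes most mutations at A and T bases during hypermutation. It lies on chromosome 17 from 46308941 to 46339574 (mm9). It stood at 25.4, 30.1 and 30.0 FPKM in Foxo1-deficient libraries, at 40.8, 47.6 and 34.7 FPKM in DZ libraries and at 15.5, 16.2 and 11.2 FPKM in LZ libraries. All DZ libraries were above all Foxo1-deficient libraries, which were above all LZ libraries. Between the zones Polh rose by 1.46 in DZ (SE 0.197, adjusted p = 0.0059), and the group means differed 2.87-fold. It also rose in Foxo1-deficient cells against LZ, by 0.96 (SE 0.197, adjusted p = 0.0391), a 1.99-fold difference of means. This call was lost when only the compared groups were fitted (adjusted p = 0.102), and without any 1 library except DZ replicate 3 (adjusted p up to 0.133). Against DZ the change in Foxo1-deficient cells was -0.51 (95% interval -0.94 to -0.07) and did not pass (adjusted p = 0.23). Estimated fragments behind these values were 288 to 314 in Foxo1-deficient, 364 to 462 in DZ and 108 to 162 in LZ libraries.

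Rev1 encodes a deoxycytidyl transferase that is also the scaffold on which the other translesion polymerases assemble. It lies on chromosome 1 from 38109630 to 38186507 (mm9). Its level was 26.7, 30.7 and 23.1 FPKM in Foxo1-deficient libraries, 14.9, 10.7 and 10.8 FPKM in DZ libraries and 16.6, 22.5 and 20.4 FPKM in LZ libraries. Each of the 3 Foxo1-deficient libraries was above all 6 wild-type libraries, and each DZ library was below all LZ libraries. Against DZ, Rev1 rose by 1.09 in Foxo1-deficient cells (SE 0.208, adjusted p = 0.018), with means 2.21-fold apart. The call was lost without Foxo1-deficient replicate 1 or 2 or DZ replicate 2 or 3, with adjusted p of 0.0571 to 0.0817. Against LZ the change was 0.42 (95% interval -0.04 to 0.87, adjusted p = 0.416), and between DZ and LZ it was -0.67 (95% interval -1.13 to -0.22, adjusted p = 0.152). The mm9 locus of Rev1 overlaps that of Eif5b by 2794 bases, and without a stated use of strand, reads from the shared part cannot be told apart. Eif5b, a translation initiation factor, was 22.0 ± 1.38 FPKM in Foxo1-deficient, 18.2 ± 4.39 FPKM in DZ and 21.2 ± 7.21 FPKM in LZ libraries (SD, n = 3) and passed in no comparison (adjusted p of 0.646 to 0.904).

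**Figure D2:**
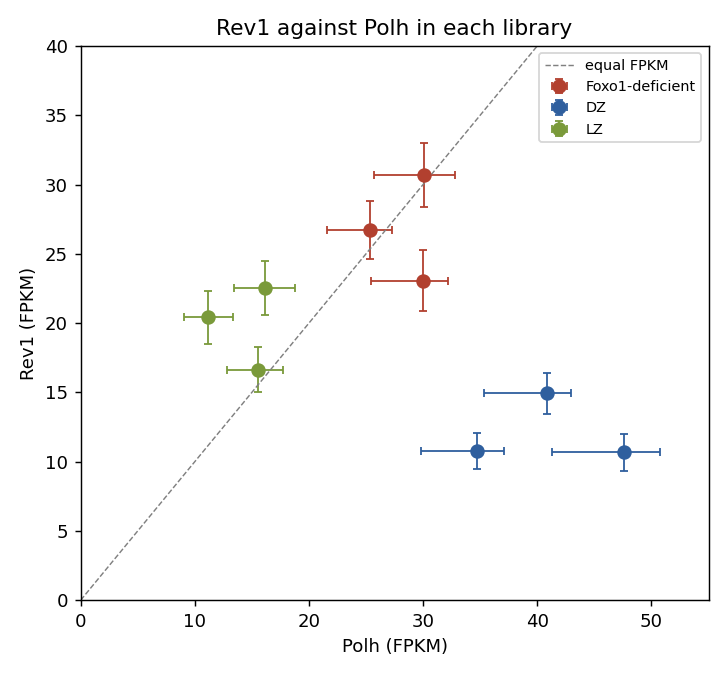
Rev1 (y axis, FPKM) against Polh (x axis, FPKM) in the 9 libraries, with Cufflinks confidence intervals as bars and a dashed line of equal FPKM. DZ libraries lie far below the line (Polh over Rev1 of 2.74 to 4.46), LZ libraries above it (0.548 to 0.935) and Foxo1-deficient libraries around it (0.949 to 1.3).

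Since FPKM is scaled by length, the translesion genes can also be ranked within a library. Polh was the most abundant of these 5 in all 3 DZ libraries and Rev1 in all 3 LZ libraries. Among Foxo1-deficient libraries, Rev1 led in replicates 1 and 2 and Polh in replicate 3. Of the summed FPKM of the 5 genes, Polh made up 40.2% ± 6.32 in Foxo1-deficient, 63.0% ± 2.65 in DZ and 28.7% ± 5.06 in LZ libraries (SD, n = 3). The corresponding share of Rev1 was 37.5% ± 2.44 in Foxo1-deficient, 18.9% ± 4.49 in DZ and 39.8% ± 3.73 in LZ libraries. The sum itself was 71.4 ± 6.44 FPKM in Foxo1-deficient, 65.0 ± 7.94 FPKM in DZ and 49.8 ± 4.02 FPKM in LZ libraries. Foxo1-deficient libraries thus had a sum near that of DZ, with shares of Polh and Rev1 nearer to those of LZ.

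Mad2l2 encodes the accessory subunit that links DNA polymerase zeta, the extender of mispaired ends, to Rev1. It lies on chromosome 4 from 147514598 to 147519805 (mm9), and its 23 to 73 estimated fragments per library make it imprecise. Values were 13.3, 9.23 and 6.88 FPKM in Foxo1-deficient libraries, 3.10, 6.14 and 5.67 FPKM in DZ libraries and 7.27, 5.38 and 9.96 FPKM in LZ libraries. All Foxo1-deficient libraries were above all DZ libraries, while the LZ libraries overlapped both groups. Against DZ the change was 0.86 (95% interval 0.14 to 1.57, adjusted p = 0.22), and against LZ it was 0.33 (95% interval -0.38 to 1.05, adjusted p = 0.71). Between DZ and LZ it was -0.52 (95% interval -1.24 to 0.19, adjusted p = 0.503).

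Poli and Polk encode polymerases iota and kappa, further members of the family of Polh and Rev1. Poli, on chromosome 18 from 70668333 to 70689975 (mm9), was 5.10, 4.56 and 3.40 FPKM in Foxo1-deficient libraries, 3.76, 8.04 and 6.22 FPKM in DZ libraries and 4.75, 8.65 and 5.35 FPKM in LZ libraries. Its 3 groups overlapped, and changes were -0.35 for Foxo1-deficient against DZ and -0.41 for Foxo1-deficient against LZ (adjusted p of 0.635 and 0.621). For DZ against LZ the change was -0.06 (95% interval -0.76 to 0.64, adjusted p = 0.96), and it was 0.13 with quantile normalization and 0.13 with median centring. Polk, on chromosome 13 from 97250643 to 97312440 (mm9), was the lowest of the translesion genes in all 9 libraries. Its values were 3.42, 1.55 and 0.671 FPKM in Foxo1-deficient libraries, 0.949, 1.13 and 0.575 FPKM in DZ libraries and 2.66, 1.64 and 1.28 FPKM in LZ libraries. All DZ libraries were below all LZ libraries, but with 18 to 99 estimated fragments the change of -0.59 did not pass (95% interval -1.45 to 0.28, adjusted p = 0.546). The Foxo1-deficient libraries spanned nearly the whole range of Polk, and their changes were 0.51 against DZ (adjusted p = 0.57) and -0.08 against LZ (adjusted p = 0.959), where quantile normalization gave 0.0066.

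**Figure D3:**
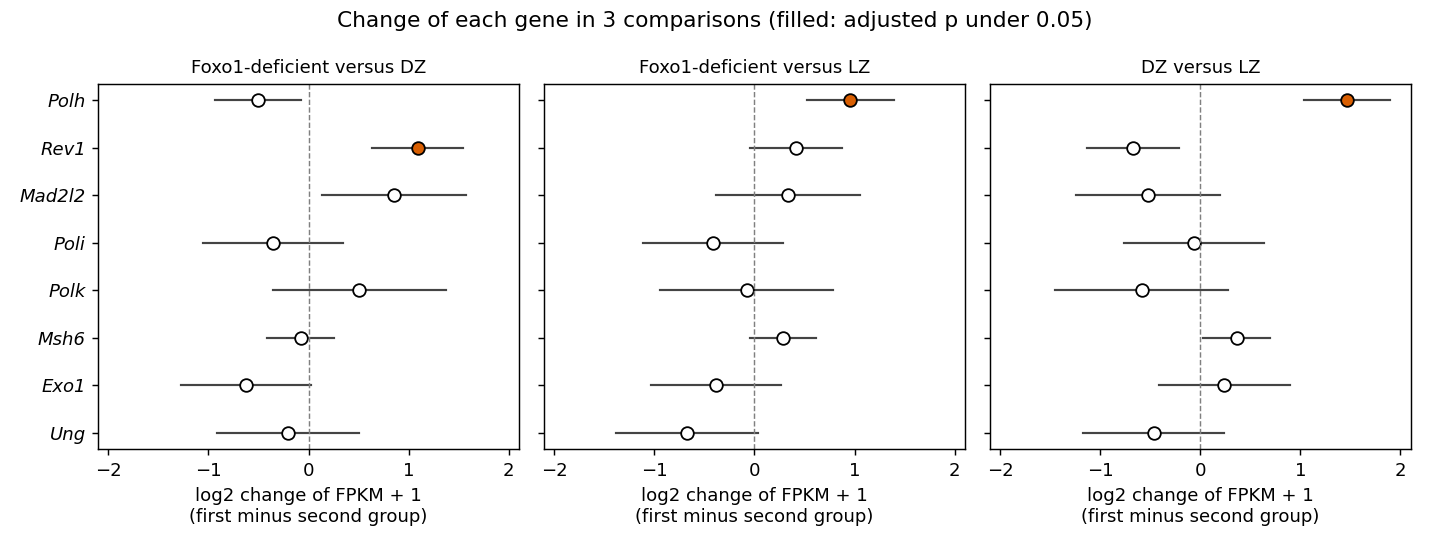
Log2 change of FPKM + 1 (x axis, first minus second group) of the 8 genes in 3 comparisons, with 95% intervals from limma as lines. Filled points passed an adjusted p of 0.05: Rev1 in Foxo1-deficient against DZ (1.09), Polh in Foxo1-deficient against LZ (0.96) and Polh in DZ against LZ (1.46).

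The difference between Polh and each other translesion gene was tested directly, as log2(FPKM + 1) of Polh minus that of the other gene in each library. An exact permutation test asked whether this difference varied over the 3 groups, with 0.00357 as the smallest p it can give, and p-values were adjusted over the 4 tests, which share Polh. Relative to Rev1, Polh stood at 0.09 ± 0.24 in Foxo1-deficient, 1.68 ± 0.34 in DZ and -0.45 ± 0.36 in LZ libraries (SD, n = 3; exact p = 0.00357, adjusted 0.0143). Relative to Polk, it stood at 3.47 ± 0.83 in Foxo1-deficient, 4.48 ± 0.05 in DZ and 2.43 ± 0.26 in LZ libraries (exact p = 0.00714, adjusted 0.0143). Against Mad2l2 it stood at 1.49 ± 0.56 in Foxo1-deficient, 2.85 ± 0.47 in DZ and 0.86 ± 0.65 in LZ libraries (exact p = 0.0107, adjusted 0.0143). Against Poli it stood at 2.47 ± 0.35 in Foxo1-deficient, 2.62 ± 0.45 in DZ and 1.10 ± 0.37 in LZ libraries (exact p = 0.025, adjusted 0.025). The DZ libraries were above all LZ libraries in each of the 4 differences. Relative to the mean of all 4, Polh stood at 1.88 ± 0.49 in Foxo1-deficient, 2.91 ± 0.19 in DZ and 0.98 ± 0.27 in LZ libraries, so that DZ exceeded LZ by 1.92. Between 2 groups of 3 an exact test cannot give a p below 0.10, so no pair of groups was tested alone.

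**Figure D4:**
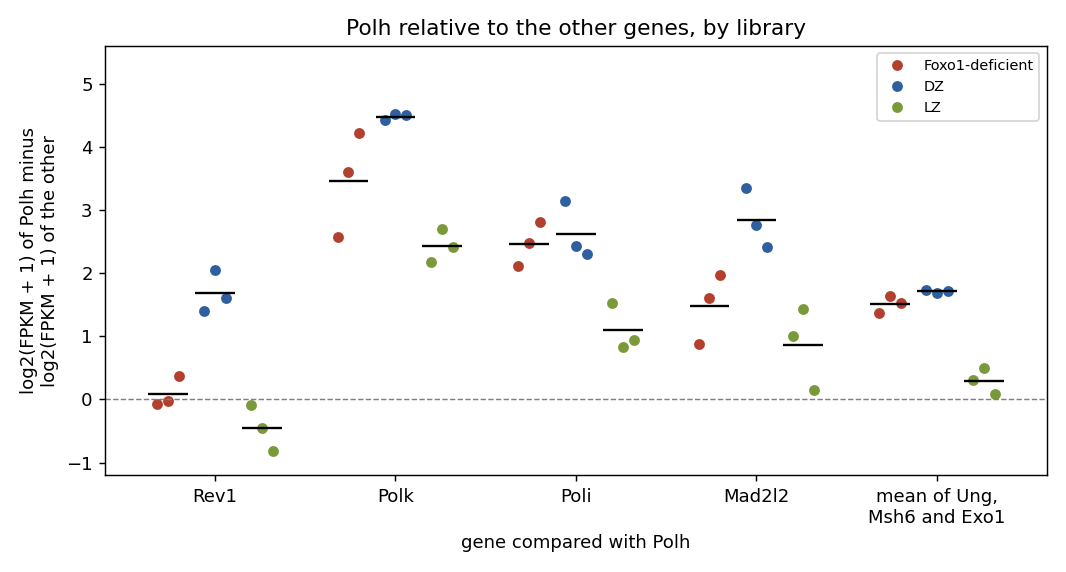
Log2(FPKM + 1) of Polh minus that of another gene, or minus the mean of 3 genes (y axis), in each library of the 3 groups. Points are libraries and lines group means. DZ points lie above LZ points for every gene on the x axis, and Foxo1-deficient points lie near DZ for Poli (means 2.47 and 2.62) and nearer to LZ for Rev1 (0.09 and -0.45).

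Msh6 pairs with another subunit to recognize the mismatch of a uracil with guanine, the entry to the mismatch branch of hypermutation. It lies on chromosome 17 from 88374389 to 88390232 (mm9). Its level was 32.1, 29.2 and 32.6 FPKM in Foxo1-deficient libraries, 35.2, 31.8 and 32.5 FPKM in DZ libraries and 24.96, 27.7 and 24.0 FPKM in LZ libraries. The LZ libraries were below all others, and the Foxo1-deficient and DZ libraries overlapped. The Msh6 locus overlaps that of Fbxo11 by 34 bases. Msh6 had the smallest spread of the 8 genes, 1.47-fold from lowest to highest library. Changes were -0.08 for Foxo1-deficient against DZ (95% interval -0.41 to 0.25, adjusted p = 0.84), 0.28 for Foxo1-deficient against LZ (-0.05 to 0.62, adjusted p = 0.448) and 0.36 for DZ against LZ (0.03 to 0.70, adjusted p = 0.28).

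Exo1 encodes the exonuclease that removes the strand around the mismatch and lies on chromosome 1 from 177810908 to 177841527 (mm9). It was 3.39, 3.87 and 2.07 FPKM in Foxo1-deficient libraries, 5.98, 6.11 and 3.82 FPKM in DZ libraries and 4.90, 3.42 and 4.57 FPKM in LZ libraries. Foxo1-deficient replicates 1 and 3 were below all 6 wild-type libraries, and replicate 2 overlapped both zones. The change against DZ was -0.62 (95% interval -1.27 to 0.03, adjusted p = 0.331), that against LZ was -0.38 (-1.03 to 0.27, adjusted p = 0.624) and that of DZ against LZ was 0.24 (-0.41 to 0.89, adjusted p = 0.775).

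Ung excises uracil and so opens the base excision branch. It lies on chromosome 5 from 114580443 to 114589330 (mm9). Its values were 6.32, 5.72 and 11.2 FPKM in Foxo1-deficient libraries, 6.93, 13.9 and 6.83 FPKM in DZ libraries and 14.7, 13.1 and 10.1 FPKM in LZ libraries. Foxo1-deficient replicate 3 and DZ replicate 2 stood well above the other libraries of their groups, and all 3 groups overlapped. Changes were -0.21 for Foxo1-deficient against DZ (95% interval -0.92 to 0.50, adjusted p = 0.798), -0.68 for Foxo1-deficient against LZ (-1.39 to 0.03, adjusted p = 0.393) and -0.47 for DZ against LZ (-1.18 to 0.24, adjusted p = 0.554). Polh minus the mean of Ung, Msh6 and Exo1 on the log2(FPKM + 1) scale was 1.51 ± 0.14 in Foxo1-deficient, 1.71 ± 0.03 in DZ and 0.29 ± 0.21 in LZ libraries (SD, n = 3).

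The Foxo1-deficient mean, on the log2 scale, lay between the zone means for 3 of the 8 genes, Msh6, Polh and Polk. It was above both zones for Rev1 and Mad2l2 and below both for Ung, Exo1 and Poli. Groups did not overlap for 3 of 8 members in Foxo1-deficient against DZ (Polh, Rev1 and Mad2l2), where 23.1% of all tested genes did not. They did not overlap for 3 of 8 in Foxo1-deficient against LZ (Msh6, Polh and Rev1), with a background of 17.5%, and for 4 of 8 in DZ against LZ (Msh6, Polh, Rev1 and Polk), with a background of 22.3%. The median change over the members was -0.14, 0.10 and -0.26 in these comparisons, beside all-gene medians of 0.12, -0.02 and -0.15.

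The genes most like Polh were those with the smallest root mean square difference of centred log2(FPKM + 1) over the 9 libraries. They were Mtf2, a Polycomb-associated protein (0.198), the deubiquitinase Otub2 (0.256), the phosphatase Cdc14b (0.264), Gm9786 (0.27) and Racgap1, of cytokinesis (0.273), against a median of 0.785 over 10003 genes. Mtf2 was 29.4 ± 4.93 FPKM in Foxo1-deficient, 42.7 ± 2.5 FPKM in DZ and 19.4 ± 3.82 FPKM in LZ libraries. Of the other members Msh6 was the nearest (0.485, rank 239), followed by Exo1 (0.67) and Poli (0.757), while Ung, Polk, Rev1 and Mad2l2 lay between 0.891 and 0.949, farther than the median. The likeness uses the same libraries as the tests and is a description. Xpo5, a nuclear export receptor for microRNA precursors whose mm9 locus starts 229 bases from that of Polh, was 5.42 ± 0.703 FPKM in Foxo1-deficient, 3.79 ± 0.429 FPKM in DZ and 6.35 ± 1.77 FPKM in LZ libraries. Its change in DZ against LZ was -0.59 (adjusted p = 0.307), opposite in sign to that of Polh.

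Other genes of these pathways were read from lists of base excision repair, mismatch repair, translesion synthesis with damage tolerance, and hypermutation cofactors. Of 20 tested base excision genes, 1 passed in 1 comparison: Neil1, a glycosylase for oxidized bases, was 148 ± 39.7 FPKM in DZ against 68.5 ± 5.73 FPKM in LZ and rose by 1.06 (adjusted p = 0.0482). That call held in 7 of 17 alternative settings and was lost without either of DZ replicates 1 and 2, any LZ library or Foxo1-deficient replicate 2 (adjusted p of 0.0662 to 0.167). In Foxo1-deficient cells Neil1 was 93.0 ± 27.4 FPKM, and it passed against neither zone (adjusted p of 0.191 against DZ and 0.499 against LZ). The list's median change in DZ against LZ was 0.03, beside -0.15 over all genes, of which 1.94% were called. Apex2, an abasic site endonuclease, was 3.39 ± 0.712 FPKM in Foxo1-deficient, 3.44 ± 0.564 FPKM in DZ and 7.84 ± 1.81 FPKM in LZ libraries, with adjusted p of 0.115 for Foxo1-deficient against LZ and 0.114 for DZ against LZ.

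None of the 19 mismatch repair genes, 17 translesion and tolerance genes or 15 cofactor genes passed in any comparison. Over all genes tested, 2.85%, 1.56% and 1.94% were called in Foxo1-deficient against DZ, Foxo1-deficient against LZ and DZ against LZ. Lists this short would hold few or no calls at such shares. Medians of the mismatch list were -0.17, -0.10 and -0.03 for Foxo1-deficient against DZ, Foxo1-deficient against LZ and DZ against LZ. Those of the translesion list were 0.12, 0.02 and -0.24, and those of the cofactor list -0.06, -0.04 and -0.05. Pcna, the sliding clamp that recruits translesion polymerases, was 209 ± 56.6 FPKM in Foxo1-deficient, 281 ± 18.4 FPKM in DZ and 269 ± 13.0 FPKM in LZ libraries (adjusted p of 0.238 to 0.924). Apobec1, a cytidine deaminase of the RNA-editing kind, was 52.8 ± 3.58 FPKM in Foxo1-deficient, 39.0 ± 5.22 FPKM in DZ and 31.5 ± 5.91 FPKM in LZ libraries, with adjusted p = 0.0755 for Foxo1-deficient against LZ.

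Among 30 genes of G2 and M phase, 8 rose in DZ against LZ, where 0.56% of all tested genes rose. Their median change there was 0.60, and none of the 30 passed in Foxo1-deficient cells against either zone by limma. In Foxo1-deficient cells the median change was 0.439 against LZ, with 28 of 30 positive, and -0.215 against DZ, with 7 of 30 positive. The summed level of these 30 genes was 941 to 1026 FPKM in Foxo1-deficient, 1039 to 1225 FPKM in DZ and 668 to 773 FPKM in LZ libraries, which is the order seen for Polh. Of the S phase genes, Mcm6, a subunit of the replicative helicase, fell in Foxo1-deficient libraries relative to DZ, with a log2 change of -0.60 (adjusted p = 0.0396). The summed level of 30 S phase genes was 760 to 914 FPKM in Foxo1-deficient, 944 to 1136 FPKM in DZ and 854 to 981 FPKM in LZ libraries. The Foxo1-deficient range was the lowest but overlapped that of LZ, and the LZ range overlapped that of DZ. Mcm6 was chosen after its values were seen. The part of cell cycle in the Polh and Exo1 values was not tested.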

How the data were processed

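RNA was measured in 9 libraries, 3 each of Foxo1-deficient, DZ and LZ cells, made with the NEBNext Ultra kit from TRIzol RNA per the labels' protocols. The build mm9, TopHat2 2.0.8 and Cufflinks 2.1.1 are listed in the submitters' processing notes. Each library has its own gene table, in which the deposited unit is FPKM with confidence bounds, per the file headers; annotation, strand setting and masks are not given in the sources used here.

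Of 23700 entries, 716 of repeated symbols and 7 genes with a failed estimate were left out. Genes with FPKM of at least 1 in at least 3 libraries (10004) were tested with limma 3.58.1 in R 4.3.3, with an intensity trend on log2(FPKM + 1), 1 fit of 3 group means, two-sided, at an adjusted p of 0.05. The pseudocount of 1 understates the change of low genes. Depth is not stated: fragments were estimated by taking the Cufflinks interval as 2 SD of a Poisson count on each side, and cover counting error only. Exact tests permuted libraries over groups. The scripts were tested on simulated data.

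Genes named are the 8 members, the called genes and at most 3 others of each pathway list, and the 5 genes most like Polh. Members, lists and motifs were chosen with earlier results of these data known. Coordinates are mm9 as the files give them; promoters are from RefSeq on GRCm38.p6. Alternatives were other pseudocounts, filter, scalings, weights, a replicate block and single libraries left out. A further S phase result is not reported here.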

Additional observations from a re-analysis of the deposited data

How the results depend on the processing

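The call of Polh in DZ against LZ held under all 17 alternatives, with changes of 1.31 to 1.65 and adjusted p of 0.00142 to 0.0298. The number of members called stayed at 1 in that comparison. It was 0 for Foxo1-deficient against LZ when only the compared groups were fitted. Leaving out 1 library gave 0 to 1 for Foxo1-deficient against LZ and 0 to 1 for Foxo1-deficient against DZ. These fits hold fewer samples, and the cause of the lost calls was not tested. Of 408 single-gene values under alternatives, 13 lost a call, all of Rev1 against DZ or Polh against LZ. Only results called in the main fit could lose a call, so most of the 408 values could not. With 1 library left out, Rev1 against DZ kept its call in 5 of 9 fits and Polh against LZ in 1 of 9. No value gained or reversed a call, and 9 uncalled values changed sign, of Ung, Msh6, Polk and Poli. Polh minus the mean of Rev1, Polk, Poli and Mad2l2 differed between DZ and LZ by 1.92, and by 1.77 to 2.12 with other pseudocounts, quantile normalization, the replicate block or 1 library left out, the alternatives run for it. Replicate numbers are shared between groups, and same-numbered deviations correlated only weakly, at -0.067 to 0.075. Of these, 7 of 9 were closest to their own number, so the values do not settle whether the numbers pair the libraries. The replicate block changed no call of a member. Quantile normalization and median centring moved the all-gene median of DZ against LZ from -0.146 to 0.008 and 0.043, and relative to it Polh changed by 1.61, against 1.55 with quantile normalization. That of Foxo1-deficient against DZ moved from 0.123 to 0.001 and -0.055, and relative to it Rev1 changed by 0.97, against 1.00 with quantile normalization. Median centring leaves values relative to the median as they are by construction. Over all genes, 285 were called in Foxo1-deficient against DZ, 156 against LZ and 194 in DZ against LZ, and the lowest counts without 1 library were 127, 48 and 72. With only the compared groups the counts were 208, 58 and 122, with no filter 256, 163 and 109, with voom weights 221, 75 and 182 and with a pseudocount of 0.1 they were 211, 99 and 149. Higher genes made up 73.7% of calls in Foxo1-deficient against DZ, but 60.8% and 44.6% under the scalings, and 28.9% in DZ against LZ, but 42.8% and 56.8%. Depth limits Polk and Mad2l2, with 18 and 23 estimated fragments in their lowest libraries.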
